A study of Drosophila melanogaster with 12 samples.

Results

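Ribosomal DNA, the retrotransposons R1 and R2 that insert into it, and a relative of R1 were represented by 4 rows of the deposited repeat tables. These were rDNA_repeat, the ribosomal DNA row, the non-LTR retrotransposons R1_DM and R2_DM, and the row R1-2_DM for an element related to R1. The rows were chosen by name and not by a filter on their values, but with earlier results of these data known. All 4 were present among the 203 rows of the H3K9me3 table and the 199 rows of the H3K36me3 table. The cells were S2, an established embryonic line of Drosophila melanogaster grown in Schneider medium with serum. They received double-stranded RNA against GFP, as the control, or against KDM4A for 5 days with the reagent DOTAP, and every group shared this transfection. Chromatin was then precipitated with an antibody to H3K9me3 or to H3K36me3, or kept as input. The labels list 12 libraries, 2 in each of 6 groups, numbered 3 and 4, and do not say whether the numbers stand for separate cultures.

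In flies the ribosomal RNA genes lie in long tandem arrays of the sex chromosomes, and RNA polymerase I transcribes them in the nucleolus. Cells hold more units than they use, and silent units are packed as heterochromatin. R1 and R2 encode reverse transcriptases and insert at fixed sites of the 28S gene, and units that carry them are mostly silent. H3K9me3 is a histone mark of heterochromatin, bound by HP1a. H3K36me3 is laid down behind elongating RNA polymerase II and marks the bodies of its active genes. KDM4A is a Jumonji-domain histone demethylase that acts on methylated H3K36 and, in flies, is a partner of HP1a. The comparison asked how the 2 marks over repeats differed when KDM4A was depleted.

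Each value was a mean enrichment, a linear ratio per row, with 1 mean per treatment and mark. The values of single libraries were not given, so none of the means has a standard deviation or a p-value, and higher and lower describe these means only. The depth is unknown. Values were deposited to 3 decimals, and the rounding alone set limits to each log2 ratio that are given where they matter. The level of KDM4A and markers of the cell type could not be checked, since the tables hold repeats only. None of the 4 names was a symbol in the RefSeq gene table of Release 6, which lists 3 genes and 2 pseudogenes for the 18S RNA, and 2 genes and 10 pseudogenes for the 28S RNA. The tables do not tie the ribosomal DNA row to any of these genes.

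The 3 retrotransposon rows carried more H3K9me3 than the typical repeat, whereas the ribosomal DNA row carried less. R1_DM had a mean H3K9me3 enrichment of 3.57 in GFP RNAi cells and 3.82 in KDM4A RNAi cells. R1-2_DM had 3.46 and 4.61, and R2_DM had 2.81 and 3.12. The ribosomal DNA row had 1.67 and 1.70. The median over all 203 rows was 2.32 and 2.37 in the same columns, so R1_DM stood at 1.54 times the median of control cells and ribosomal DNA at 0.718 times. In control cells R1_DM ranked 27, R1-2_DM 34, R2_DM 67 and ribosomal DNA 145 of 203. Ribosomal DNA was still above 1 in both columns, as were 172 of 203 rows in control cells.

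In H3K36me3 the order of the rows in control cells was another. R1-2_DM had the highest value of the 4, with 0.904 in GFP RNAi cells and 1.11 in KDM4A RNAi cells, close to the median of all rows in control cells (0.898). R1_DM had 0.638 and 0.671, R2_DM 0.580 in both columns, and ribosomal DNA 0.330 and 0.320. Their ranks in control cells were 99, 157, 169 and 188 of 199. Ribosomal DNA was thus among the rows with the least of the mark: 11 rows lay below it in control cells and 12 in KDM4A RNAi cells, all tandem repeats with few exceptions. The exceptions were the terminal repeat DM297_LTR at 0.279 in control cells, and DM297_LTR at 0.258 and the internal part DM297_I at 0.301 in KDM4A RNAi cells. Every one of the 36 non-LTR retrotransposon rows had more H3K36me3 than ribosomal DNA in both columns.

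**Figure D1:**
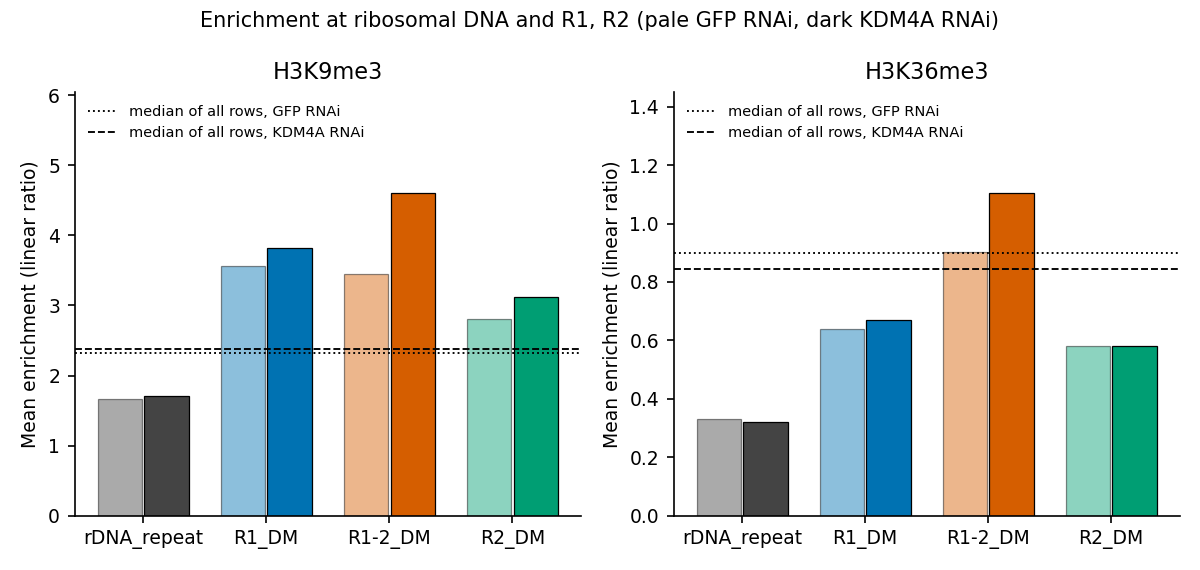
Mean enrichment (vertical axis, linear ratio, starting at 0) of the 4 rows for H3K9me3 (left) and H3K36me3 (right). Pale bars are GFP RNAi and dark bars KDM4A RNAi, each 1 deposited mean with no error bar, and lines mark the median of all rows. Ribosomal DNA is the lowest bar pair in both panels, at 1.67 and 1.70 on the left and 0.330 and 0.320 on the right.

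**Figure D2:**
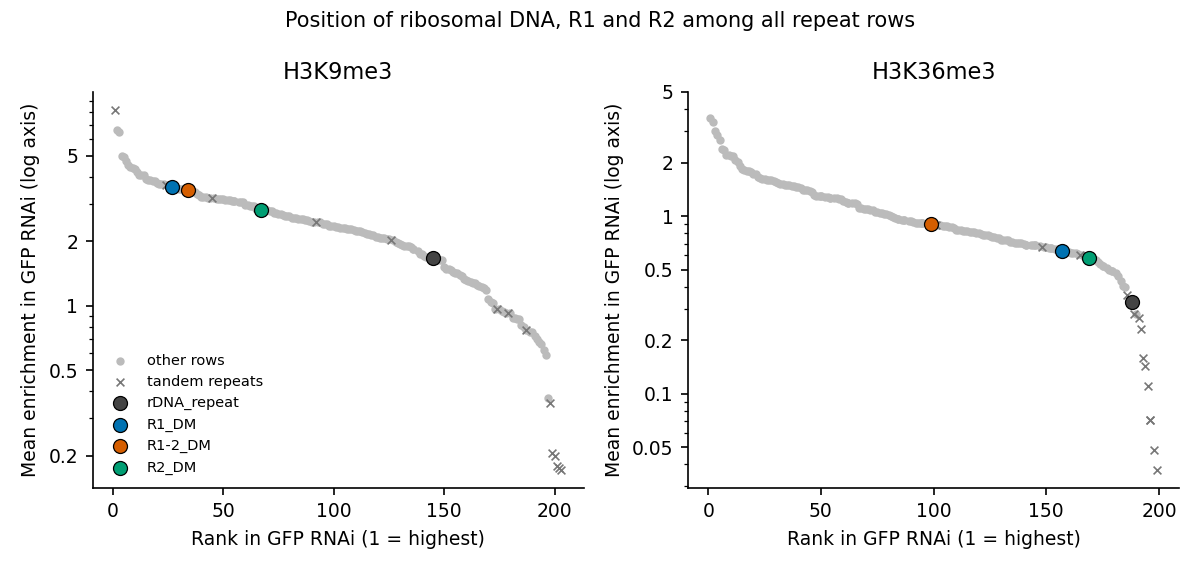
Mean enrichment in GFP RNAi cells (vertical log axis, linear ratio) against rank (horizontal axis, 1 is the highest) for every row of the H3K9me3 table (left) and the H3K36me3 table (right). Crosses are tandem repeats, and coloured points are the 4 rows described, of which ribosomal DNA sits at rank 145 of 203 on the left and at rank 188 of 199 on the right, beside most of the tandem repeats.

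R1_DM, R1-2_DM and R2_DM were compared with ribosomal DNA within each column, since such a ratio does not depend on how a column was scaled. Whether the R1-2_DM element inserts into ribosomal RNA genes is not given in the sources used here. In control cells H3K9me3 at R1_DM was 2.14 times that of ribosomal DNA, at R1-2_DM 2.07 times and at R2_DM 1.69 times. In KDM4A RNAi cells the ratios were 2.24, 2.71 and 1.83. For H3K36me3 the ratios in control cells were 1.93 at R1_DM, 2.74 at R1-2_DM and 1.76 at R2_DM. They were 2.10, 3.45 and 1.81 in KDM4A RNAi cells. All of these ratios were above 1, and for each of the 3 elements and both marks the ratio was larger in KDM4A RNAi cells. Most other rows also exceeded ribosomal DNA in control cells, 71.3% of them in H3K9me3 and 94.4% in H3K36me3, and 55.4% and 46.0% had a larger ratio to it in KDM4A RNAi cells. Of the 3 elements the difference was greatest at R1-2_DM, whose ratio to ribosomal DNA was 30.5% larger for H3K9me3 and 26.1% larger for H3K36me3. At R1_DM the ratios were 4.77% and 8.46% larger, and at R2_DM 8.68% and 3.12% larger. As deposited, the H3K36me3 of R2_DM was 0.580 in both columns, and that of ribosomal DNA went from 0.330 to 0.320. With each column divided by its median, both rows were higher, R2_DM by a log2 ratio of 0.089 and ribosomal DNA by 0.045. Which of the 2 rows moved therefore depends on the scaling. The 3 elements share 1 denominator, so the 3 ratios of a column are not independent.

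Among the elements themselves the order was less fixed. In control cells R1-2_DM had 0.968 times the H3K9me3 of R1_DM, and in KDM4A RNAi cells 1.21 times, so that R1-2_DM was below R1_DM in the first column and above it in the second. Its H3K36me3 was above that of R1_DM in both columns, at 1.42 and 1.65 times. R2_DM was the lowest of the 3 elements in every column. R1_DM had 1.27 times its H3K9me3 in control cells and 1.22 times in KDM4A RNAi cells. How reads that match more than 1 of these rows were assigned is not given in the sources used here, so the division of signal between R1_DM and R1-2_DM, and between inserted and empty ribosomal units, is uncertain.

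**Figure D3:**
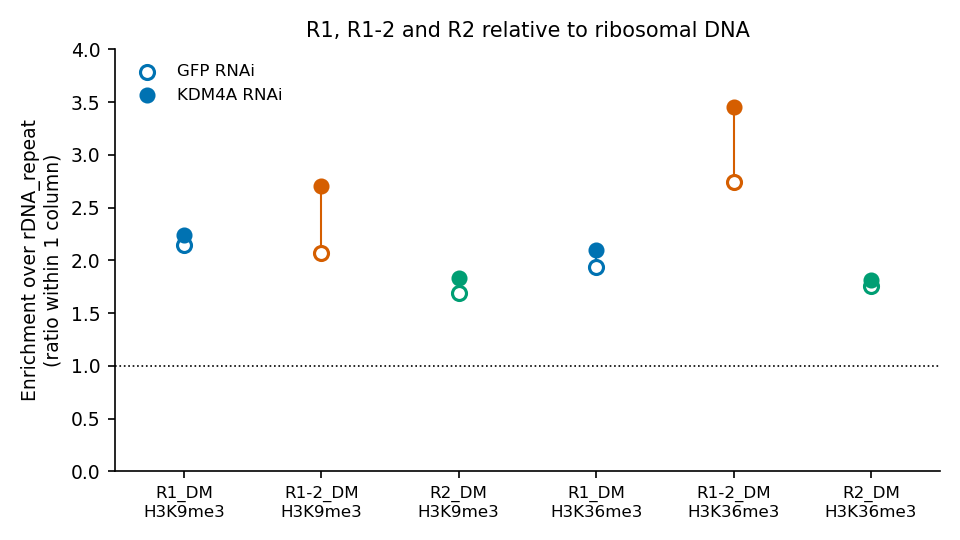
Enrichment of R1_DM, R1-2_DM and R2_DM divided by that of the ribosomal DNA row in the same column (vertical axis, ratio, starting at 0), for H3K9me3 and H3K36me3. Open points are GFP RNAi, filled points KDM4A RNAi, and the dotted line marks a ratio of 1. All points lie above 1, and the gap between open and filled points is widest at R1-2_DM, from 2.07 to 2.71 and from 2.74 to 3.45.

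The balance of the 2 marks was compared by the order of the rows only, because the scaling of one table against the other is unknown and would change every quotient of H3K9me3 over H3K36me3 by the same factor. In control cells R1_DM ranked 8, ribosomal DNA 10 and R2_DM 15 of the 199 rows from the highest quotient down. R1-2_DM ranked 44. In KDM4A RNAi cells the ranks were 8, 16, 14 and 42. Outside the tandem repeats the ranks in control cells were 4, 6, 10 and 35 of 185 in the same order. The related rows DMRT1A, DMRT1B and DMRT1C ranked 7, 9 and 16 of 199 in control cells. Ribosomal DNA was low in both marks and ranked near R1_DM and R2_DM in their balance, while R1-2_DM ranked below all 3.

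After KDM4A RNAi all 4 rows had more H3K9me3 than in control cells as deposited, against 64.5% of all 203 rows. When each column was divided by its median that share was 55.7%, and the log2 ratio of ribosomal DNA was 0.000. The differences were small at 3 of them. R1_DM differed by a log2 ratio of 0.10, an increase of 7.03% in the mean. R2_DM differed by 0.15, or 11.0%. Ribosomal DNA differed by 0.03, or 2.16%, and was slightly lower (-0.01) when columns were divided by the median of the transposon rows. The median log2 ratio of all rows was 0.04, with quartiles of -0.05 and 0.12, so that R1_DM and ribosomal DNA lay between these quartiles and R2_DM just above the upper one.

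R1-2_DM differed more, with a log2 ratio of 0.41 from 3.46 to 4.61. It was the only one of the 4 rows with a difference of at least 1.2 times, a threshold that 4.93% of all rows passed upward and 7.39% downward. Its log2 ratio ranked 5 of 203 over the table and 1 of the 36 non-LTR rows, and in linear units its difference of 1.15 ranked 3 of 203. R1-2_DM climbed 23 places in the order of H3K9me3 levels, from 34 to 11, and 7 other rows climbed as far. No row of the 4 reached 1.5 times, which 0.493% of rows did upward and 2.46% downward. The gap between R1-2_DM and R1_DM in this log2 ratio was 0.32. As a scale for it, 46 LTR retrotransposons had rows for both marks named as internal part (_I) and terminal repeat (_LTR) of the same element. Elements named in another style were not counted. These pairs are parts of 1 element, whereas R1-2_DM and R1_DM are rows of related elements. A gap at least as wide separated the parts of 8 of these elements, and the median gap was 0.14.

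For H3K36me3, 2 of the 4 rows were higher after KDM4A RNAi, against 33.7% of all 199 rows. R2_DM was equal at the deposited precision, as were 1.01% of rows. Ribosomal DNA was lower as deposited, as were 65.3% of rows, and higher when each column was divided by its median. R1-2_DM again differed most, with a log2 ratio of 0.29, and was again the only one of the 4 past 1.2 times, which 4.02% of rows passed upward and 6.03% downward. With a pseudocount of 1 added to both values its log2 ratio was 0.145, under that threshold, whereas its H3K9me3 log2 ratio of 0.331 with the same pseudocount was still past it. None of the 4 reached 1.5 times, which 2.51% of rows did upward. R1-2_DM ranked 8 of 199 over all rows and 1 of the 36 non-LTR rows, and climbed from rank 99 to 67, as far as only 2 other rows. Among rows in both tables, 3 passed 1.2 times upward in both marks, and R1-2_DM was one of them, beside the satellite AATAG and the terminal repeat GYPSY11_LTR. AATAG had very low values, 0.176 and 0.310 in H3K9me3 and 0.037 and 0.060 in H3K36me3. Its H3K36me3 was the lowest of all rows in control cells. The labels list input per treatment and not per antibody. If the ratios were taken over input, which is not given, the 2 marks of a row are not independent. R1_DM differed by 0.07 log2 units, or 5.17%. The gap between R1-2_DM and R1_DM was 0.22, and 10 of the 46 LTR retrotransposons had parts that differed by as much.

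The direction of the small H3K36me3 differences depended on the scale. For ribosomal DNA the log2 ratio was -0.044 as deposited, with limits of -0.049 and -0.040 from rounding, but 0.045 when each column was divided by its median. For R2_DM it was 0.00 as deposited, with rounding limits of -0.002 and 0.002, and 0.09 after that division. The share of all rows that were higher went from 33.7% to 62.3% with the same step. The median of all 199 rows differed by -0.09 log2 units between the columns, whereas the median of the 175 transposon rows differed by only -0.002. Dividing by the transposon median therefore left the log2 ratio of ribosomal DNA at -0.043 and that of R2_DM at 0.002. R1_DM and R1-2_DM were higher under every one of these scalings.

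**Figure D4:**
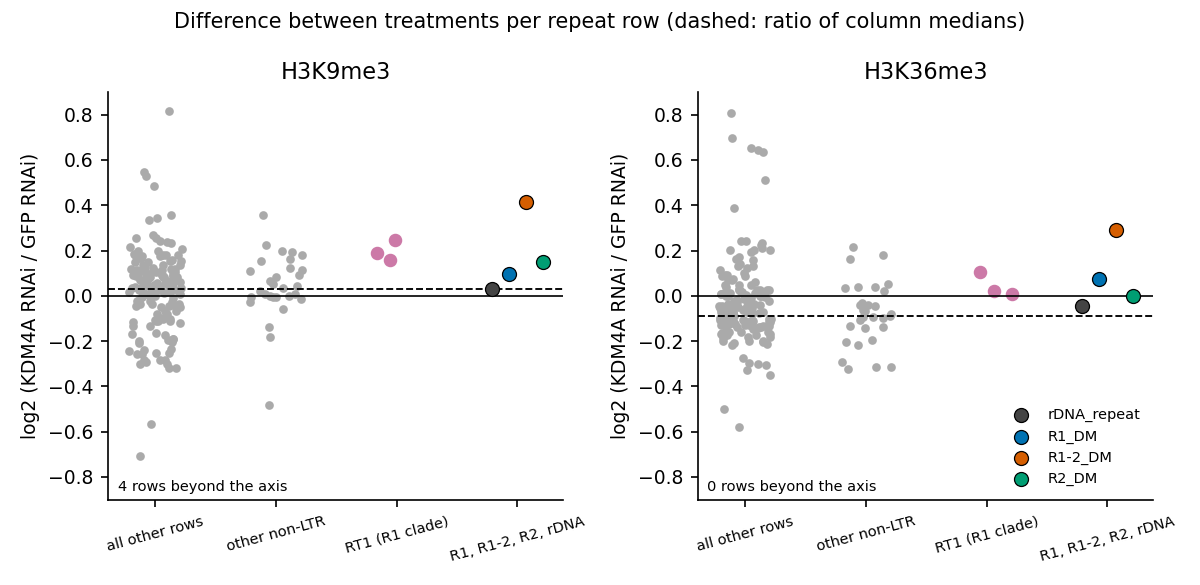
Log2 ratio of KDM4A RNAi over GFP RNAi enrichment (vertical axis) for every row of the H3K9me3 table (left) and the H3K36me3 table (right), grouped along the horizontal axis as the 4 rows described, the RT1 elements, the remaining non-LTR rows and all other rows, 1 point per row. The solid line is 0, the dashed line the ratio of the column medians, and 4 rows of the left panel lie beyond the axis limit of 0.9. R1-2_DM is at 0.41 and 0.29, above the 33 other non-LTR rows in both panels.

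The RT1 elements, which belong to the R1 clade of non-LTR retrotransposons, were read beside R1_DM and R1-2_DM. In H3K9me3 DMRT1A had 4.93 in control and 5.50 in KDM4A RNAi cells, DMRT1B 3.54 and 4.20, and DMRT1C 4.42 and 5.03. DMRT1A and DMRT1C were thus above both R1 rows in control cells, at ranks 5 and 9 of 203. In H3K36me3 the same 3 rows had 0.880 and 0.893, 0.641 and 0.689, and 0.912 and 0.916. All 5 rows of the clade were higher in both marks after KDM4A RNAi, while 51 of all 199 rows (25.6%) and 7 of the 30 non-LTR rows outside the clade and R2 were higher in both as deposited. With columns divided by their median the 5 were again higher in both, but so were 85 of 199 rows (42.7%) and 10 of the 30. With the transposon median or ribosomal DNA as the divisor, the 5 stood beside 24.6% and 31.7% of all rows. In H3K36me3 the size was small at most of them, with log2 ratios of 0.02 and 0.01 at DMRT1A and DMRT1C. In H3K9me3 the log2 ratios of DMRT1A, DMRT1B and DMRT1C were 0.16, 0.25 and 0.19. These were above the upper quartile of all rows (0.12), as was R1-2_DM, while R1_DM was below it at 0.10. The 3 RT1 rows ranged over 0.09 log2 units in H3K9me3 and 0.10 in H3K36me3. If the ratios were taken over input, both marks of a row may share a denominator, so a row higher in both is not independent evidence from each mark. No test could be made of whether the clade differed from the other rows.

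The other non-LTR retrotransposons, 33 rows without R1, R1-2 and R2, had a median H3K9me3 of 3.12 in control cells, which lay below R1_DM and R1-2_DM and above R2_DM. Their levels ran from Jockey at 1.23 to G7_DM at 4.99, and 29 of the 33 were above ribosomal DNA. After KDM4A RNAi 23 were higher and 10 were lower. The median of their log2 ratios was 0.05. The extremes were I_DM, the I element, at -0.48 and G6_DM at 0.36. For H3K36me3 their median was 0.912 in control cells, so R1_DM and R2_DM were low for their type and R1-2_DM was near its middle. The levels ran from ALUII_DM at 0.457 to FW3_DM at 3.02. Of the 33 rows 11 were higher and 22 lower after KDM4A RNAi, with a median of -0.07 and a range from -0.32 at BS4_DM to 0.22 at JOCKEY2. When columns were divided by their medians, 19 rows were higher in H3K9me3 and 18 in H3K36me3.

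Rows next to the 4 in control H3K9me3 showed how rows of like level differed between treatments. The rows just above and below R1_DM were GYPSY2_I (3.64 and 3.79 in control and KDM4A RNAi cells) and ROOA_I (3.55 and 3.65), with log2 ratios of 0.06 and 0.04. Beside R1-2_DM were G5_DM (3.48 and 3.77) and GYPSY12_LTR (3.42 and 3.36), with log2 ratios of 0.11 and -0.03. Beside R2_DM lay BATUMI_LTR (2.82 and 2.37) and Copia1-I_DM (2.81 and 2.97). Beside ribosomal DNA lay BURDOCK_I (1.68 and 1.70) and QUASIMODO_LTR (1.66 and 1.61). The log2 ratio of each of the 4 was larger than those of both its neighbours, as it was for 33.8% of all rows that had a neighbour on each side, and the margin was narrow for ribosomal DNA (0.03 against 0.02 and -0.04). With no spread between libraries, it cannot be said which neighbours differed in level beyond error.

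In control H3K36me3 the neighbours of R1_DM were DMRT1B (0.641 and 0.689) and I_DM (0.629 and 0.550), and those of R1-2_DM were MAX_I (0.910 and 0.954) and BLASTOPIA_I (0.898 and 0.838). R2_DM lay between BS (0.590 and 0.536) and QUASIMODO2-LTR_DM (0.577 and 0.546), both of which were lower in KDM4A RNAi cells while R2_DM stayed at 0.580. Ribosomal DNA lay between DM297_I (0.332 and 0.301) and the 1.688 satellite (0.280 and 0.228). Here 3 of the 4 had a larger log2 ratio than both neighbours, against 34.5% of all rows, and R1_DM did not, with 0.07 against 0.10 at DMRT1B.

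Likeness over all 4 columns was measured as the Euclidean distance between log2 values, over 198 other rows. The row most like R1_DM was DMRT1B, at a distance of 0.14, followed by G2_DM at 0.20 and the dodeca satellite at 0.23. R2_DM was closest to TABOR_LTR at 0.07, then MICROPIA_LTR at 0.12 and G_DM at 0.15. TABOR_LTR had 2.77 and 3.15 for H3K9me3 and 0.562 and 0.597 for H3K36me3 in control and KDM4A RNAi cells. R1-2_DM had no such close row: the nearest were MAX_I at 0.36, DIVER2_LTR at 0.36 and INVADER1_I at 0.38. Ribosomal DNA was the most isolated of the 4, with the DNA transposon HOBO at 0.505, ALUII_DM at 0.645 and COPIA2LTR_DM at 0.827.

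The 4 rows were not each other's nearest rows. R2_DM was 17th in likeness to R1_DM, at a distance of 0.52, and R1-2_DM was 40th, at 0.92. Seen from ribosomal DNA, R2_DM ranked 35, R1_DM 71 and R1-2_DM 128 of 198, at distances of 1.65, 2.15 and 2.91. Seen from R2_DM the nearest of the others was R1_DM at rank 18, and seen from R1-2_DM it was R1_DM at rank 42.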

How the data were processed

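The authors deposited 2 tables, 1 per antibody, whose columns hold linear enrichment ratios of repeat rows, averaged per RNAi treatment according to the file headers. The submitters' processing notes name Bowtie and MACS2 with neither version nor role. Not given in the sources used here are the build, the library of repeats, how reads with several matches were placed, the denominator of the ratio and any correction for depth. Log2 ratios of KDM4A RNAi to GFP RNAi were computed over whole tables with no pseudocount, using Python 3.11.15, numpy 2.4.6, pandas 2.3.3 and matplotlib 3.10.9, and the code was checked on a simulated table. Rounding limits assume an error of 0.0005 in each value. A row counted as called at 1.2 times, or 1.5 times as the stricter threshold. With 1 mean per treatment no test was possible, and fits with single libraries were not run.

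The members, lists and thresholds were chosen with earlier results of these data known. Rows named were the 4 members, the 3 most alike rows of each, the rows just above and below each in GFP RNAi cells, the 3 RT1 rows and the extremes of the other non-LTR rows. DM297_LTR, AATAG and GYPSY11_LTR were chosen after their values were seen. Alternatives were a pseudocount of 1, columns divided by 3 other references, another denominator, a level filter and a linear scale.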

Additional observations from a re-analysis of the deposited data

How the results depend on the processing

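No paired analysis was possible because single libraries have no values in the deposited tables, and for that reason no library could be left out. Without a spread between libraries each moved value is given as it is, and the cause was not tested unless named. Changes after KDM4A RNAi are given as log2 ratios in the order ribosomal DNA, R1_DM, R1-2_DM and R2_DM. For H3K9me3 (0.031, 0.098, 0.415 and 0.151 as deposited) a pseudocount of 1 gave 0.019, 0.077, 0.331 and 0.113, as its construction shrinks all ratios. Division by the column median gave 0.000, 0.067, 0.384 and 0.120, and division by the transposon median gave -0.013, 0.054, 0.371 and 0.107. Relative to ribosomal DNA the 3 elements were at 0.067, 0.384 and 0.120. For H3K36me3 (-0.044, 0.073, 0.290 and 0.000 as deposited) the pseudocount gave -0.011, 0.029, 0.145 and 0.000, the column median 0.045, 0.162, 0.379 and 0.089, and the transposon median -0.043, 0.074, 0.291 and 0.002. Relative to ribosomal DNA the elements were at 0.117, 0.334 and 0.044. Every scaling subtracts 1 constant per mark from all log2 ratios, so the 2 reversals, both at ribosomal DNA, follow from that constant.

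The log2 ratio of R1_DM, R1-2_DM and R2_DM to ribosomal DNA shrank with a pseudocount of 1, by its construction. For H3K9me3 it became 0.777, 0.741 and 0.515 in control cells and 0.835, 1.053 and 0.609 in KDM4A RNAi cells. For H3K36me3 it became 0.301, 0.518 and 0.248, and 0.340, 0.673 and 0.259. Set against the median of the other non-LTR rows, the H3K9me3 values were 0.193, 0.146 and -0.152 in control cells, and 0.222, 0.491 and -0.070 in KDM4A RNAi cells. The H3K36me3 values were then -0.515, -0.013 and -0.653, and -0.432, 0.288 and -0.642. Against their own type R1_DM and R1-2_DM were thus higher in H3K9me3 and R2_DM lower, and in H3K36me3 only R1-2_DM in KDM4A RNAi cells was higher.

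The H3K9me3 table had 10 rows higher by at least 1.2 times and 15 lower, and for H3K36me3 there were 8 and 12. With 1.5 times these counts were 1 and 5, and 5 and 0. At 1.2 times among rows at or above the median level they were 5 and 3, and 2 and 4. The remaining calls were in rows below that level. The number of rows that entered this filter is not given, so these counts have no share beside them. Of the 3 most alike rows on the log2 scale, 3 were kept for each member after division by the column median. On the linear scale 2 were kept for ribosomal DNA, 2 for R1_DM, 1 for R1-2_DM and 3 for R2_DM. The number of other non-LTR rows higher in H3K36me3 went from 11 to 18 with the column median. Counts over groups under 3 scalings, and the DM297, AATAG and GYPSY11 rows, were added after seeing the data. The depth behind every value is unknown.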
